A study of Mus musculus with 8 samples.

Results

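The T-cell receptor alpha locus was examined in RNA from splenic CD8+ T cells through its gene segments. All gene symbols that begin with *Trav* or *Traj* and a number, together with *Trac*, were taken from the count tables. This gave 189 of the 48321 symbols listed, made up of 128 variable segments (*Trav*), 60 joining segments (*Traj*) and 1 constant gene (*Trac*). All lie on the plus strand of mouse chromosome 14 in GENCODE M21 (GRCm38), from *Trav1* to *Trac*, chr14:52427928-54224206. Of the *Trav* segments, 20 are annotated as pseudogenes, and so are 9 of the *Traj* segments. At least 1 read was counted for 153 members in any library, and 89 members (56 *Trav*, 32 *Traj* and *Trac*) passed the filter on low counts and were tested.

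The cells were CD8+ T cells of C57BL/6 spleen, from a series whose text names cultured cells of *Satb1* F/F mice, with floxed *Satb1* alleles, and the *E8I-cre* transgene, a recombinase whose driver is active in mature cells of the CD8 lineage. The 4 groups were WT and KO at day 0 and at day 5, each with 2 libraries numbered 1 and 2, and day 5 is taken here as the cultured time. The labels do not say which alleles the WT mice carried, how the cells were cultured, or whether libraries came from separate mice, so p-values measure the spread between these libraries, which may be technical. *Satb1*, the targeted gene, had 97.5 and 91.2 counts per 1000000 of scaled library size (CPM) in WT and 144 and 124 in KO at day 0, against 96.1 and 115 in WT and 56.3 and 62.1 in KO at day 5. The gene-level count was thus not lower in KO at day 0, and such a count does not show whether the floxed part was deleted. KO below stands for the libraries labelled KO.

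T cells assemble the alpha chain of their receptor by joining 1 variable segment to 1 joining segment on the chromosome, and splicing then attaches the constant gene. A clone keeps the segments it has joined, and different clones can use the same ones. The counts of the segments over a bulk RNA sample describe usage over the mixture of clones, which immunologists call the repertoire. The variable segments of the mouse exist largely as copies, because a stretch of the locus was duplicated, and the copies bear the letters d and n in their names. Some variable segments can also join to delta segments, and these carry a -dv suffix. The segments are cut and joined in the thymus, so mature spleen cells are past that step.

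Near-identical copies set what a count can show. The last 260 coding bases of *Trav16* (chr14:53743446-53743705), *Trav16d-dv11* (chr14:53047562-53047821) and *Trav16n* (chr14:53351362-53351621), plus strand of GRCm38 in GENCODE M21, are printed because these copies later part ways between libraries. Capitals mark bases that differ from, or have no partner in, at least 1 of the others.
Trav16: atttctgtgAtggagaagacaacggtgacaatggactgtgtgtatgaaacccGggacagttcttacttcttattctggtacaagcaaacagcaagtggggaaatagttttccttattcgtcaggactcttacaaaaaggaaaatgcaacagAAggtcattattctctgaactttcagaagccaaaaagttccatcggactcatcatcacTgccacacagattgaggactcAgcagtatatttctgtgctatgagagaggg
Trav16d-dv11: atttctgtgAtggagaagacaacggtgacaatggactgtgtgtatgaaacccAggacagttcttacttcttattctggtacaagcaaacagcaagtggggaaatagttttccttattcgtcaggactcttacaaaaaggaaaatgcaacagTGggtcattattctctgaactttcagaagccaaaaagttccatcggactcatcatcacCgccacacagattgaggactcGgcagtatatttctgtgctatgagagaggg
Trav16n: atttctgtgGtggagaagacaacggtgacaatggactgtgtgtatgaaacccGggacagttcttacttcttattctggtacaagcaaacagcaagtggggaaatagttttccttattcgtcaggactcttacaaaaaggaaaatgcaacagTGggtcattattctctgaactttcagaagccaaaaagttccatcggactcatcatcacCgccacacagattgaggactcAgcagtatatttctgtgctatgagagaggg
*Trav16* shared 97.4% of 350 aligned coding bases with *Trav16d-dv11* and 98.6% with *Trav16n*. Within the printed stretch, a read of 50 bases tells the copies apart only where it covers a capital, and the coding bases before it hold further differences. Over the annotated transcripts, 51.8% of the 50-base stretches of *Trav16* occurred in no other gene, against 37.2% for *Trav16d-dv11* and 49.5% for *Trav16n*.

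The same count of unique stretches was made for all variable segments. Of the 128, 111 belong to 40 subfamilies that have more than 1 copy, and the median segment had 36.8% unique stretches. No unique stretch existed for 42 segments, and 36 of these had at most 3 counts in any library. Among the 53 segments with at least 50% unique stretches, 8 were as low. Across the 128 segments, the number of unique stretches and the total count had a Spearman's rho of 0.75, given as a description over segments that share sequence. *Trav11* and *Trav11d*, the segments of invariant natural killer T cells, had no unique stretch and 1 count in all, so their level could not be read from these tables.

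Joining segments are short, and their conserved core is the codon for phenylalanine or tryptophan followed by glycine, any residue and glycine. The printed ones are the high *Traj18*, *Traj27* and *Traj49*, then *Traj33*, used by mucosal-associated invariant T cells, and the pseudogene *Traj14*. They lie at chr14:54168686-54168744 (*Traj49*), chr14:54185358-54185414 (*Traj33*), chr14:54192303-54192361 (*Traj27*), chr14:54200777-54200842 (*Traj18*) and chr14:54205111-54205144 (*Traj14*). Capitals mark the motif TTNGG or TGGGG followed by any 4 bases and GG, searched on the coding strand only.
Traj49: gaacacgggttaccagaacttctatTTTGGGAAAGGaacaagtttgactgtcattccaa
Traj33: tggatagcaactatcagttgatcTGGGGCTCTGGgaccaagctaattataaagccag
Traj27: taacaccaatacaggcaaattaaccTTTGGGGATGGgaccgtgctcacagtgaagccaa
Traj18: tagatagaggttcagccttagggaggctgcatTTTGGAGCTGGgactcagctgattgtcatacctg
Traj14: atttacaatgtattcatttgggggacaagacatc
One of these motifs was present in 47 of the 60 joining segments (78.3%), in 45 of the 51 annotated as genes and in 2 of the 9 pseudogenes, and the window of *Traj14* held neither. The joining segments were 29 to 72 bases long, and 4 were shorter than a 50-base read. Segment length and total count had a Spearman's rho of 0.03 across the 60 segments.

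The libraries held 4170126 to 11117971 counts assigned to genes. Of these, 1358 to 5760 fell in variable segments, 383 to 1477 in joining segments and 7461 to 30454 in *Trac*. Reads that aligned to more than 1 place made up 31.8% to 37.4% of the records and were not assigned. *Cd3e* was between 566 and 1079 CPM and *Cd8a* between 731 and 1450 CPM, whereas the natural killer cell marker *Ncr1* and *Zbtb16*, the regulator of innate-like T cells, had at most 6 counts in any library, and the B cell and myeloid genes *Cd79a* and *Lyz2* had at most 20 and 15. *Cd4* had at most 7 counts. The macrophage marker *Csf1r* ranged from 3.51 to 11.7 CPM, and *Trdc*, the delta constant gene, from 21.3 to 81.6 CPM.

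*Trac* (chr14:54220521-54224206) carried most of the signal of the locus and was lower after culture. Its levels were 2342 and 2556 CPM in WT at day 0, 2603 and 2844 in KO at day 0, 1614 and 1791 in WT at day 5, and 2055 and 2135 in KO at day 5. All 4 libraries of day 5 were below all 4 of day 0, and at each day the KO libraries were above the WT ones. In WT, *Trac* fell by 0.52 on the log2 scale (SE 0.11, edgeR false discovery rate (FDR, Benjamini-Hochberg over 12597 genes) 0.00142), and in KO it fell by 0.38 (SE 0.11, edgeR FDR 0.0103). KO against WT gave 0.15 (SE 0.11, edgeR FDR 0.593) at day 0 and 0.30 (SE 0.11, edgeR FDR 0.206) at day 5, so no genotype difference was called. The difference between those values, the interaction, was 0.15 (SE 0.15, edgeR FDR 0.755). When the *Trav* total of a library was used as its size, which sets *Trac* relative to the variable segments, the day differences became 0.00050 in WT and 0.05 in KO and the genotype differences -0.16 and -0.11. The KO call on *Trac* was lost without library 2 of KO at day 0 (edgeR FDR 0.0994), library 1 of KO at day 5 (0.0815) or library 2 of KO at day 5 (0.0562).

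The variable segments summed to 377 and 470 CPM in WT at day 0, 492 and 554 in KO at day 0, 239 and 366 in WT at day 5, and 381 and 394 in KO at day 5. Group means were 423 ± 65.8, 523 ± 43.9, 302 ± 90.2 and 387 ± 9.50 CPM (SD, n = 2). Library 1 of WT was the lowest library of its day on both days. The joining segments summed to 109 ± 9.30 CPM in WT and 137 ± 15.6 in KO at day 0, and to 82.0 ± 20.8 in WT and 92.9 ± 3.10 in KO at day 5 (SD, n = 2), and library 1 of WT was again the lowest of each day. Set against the constant gene, 16.1 and 14.8 *Trav* counts were found per 100 *Trac* counts in library 1 of WT at day 0 and day 5. The other 6 libraries held 18.4 to 20.4. In bulk RNA, fewer cells with a segment and less RNA per cell cannot be told apart.

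**Figure D1:**
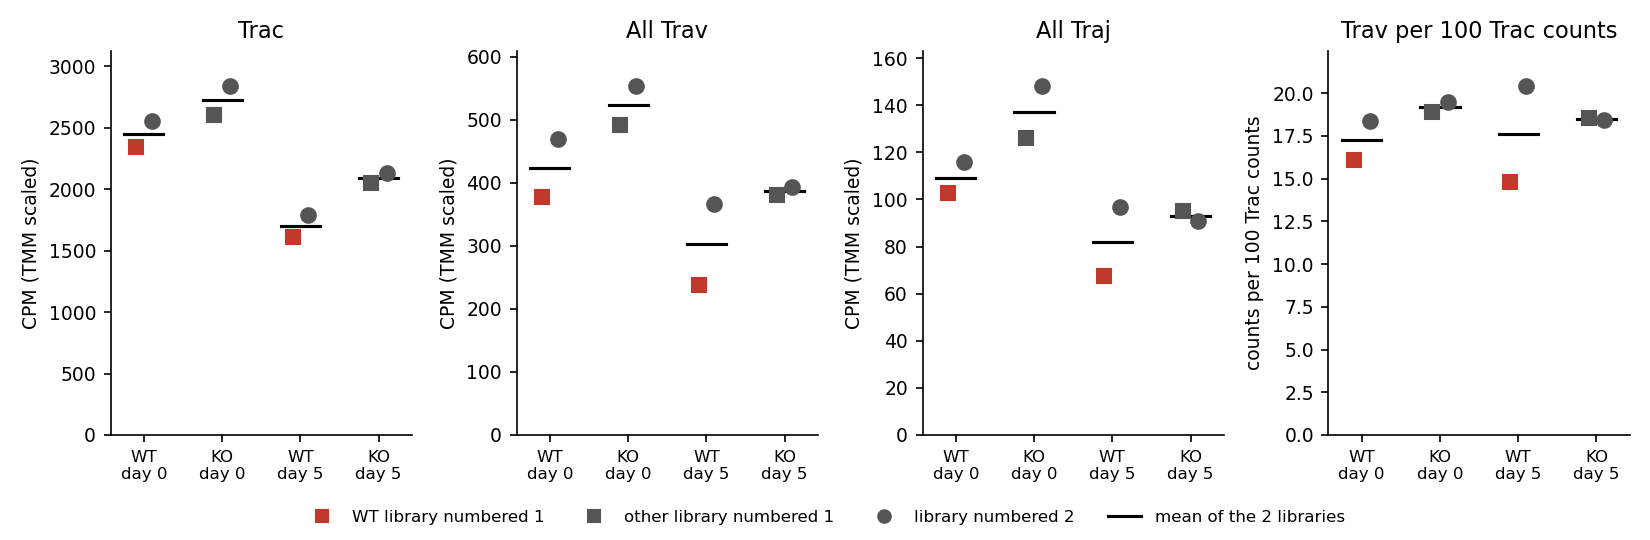
Levels of *Trac*, of all *Trav* and of all *Traj* segments in CPM, and *Trav* counts per 100 *Trac* counts, for each of the 8 libraries (squares, numbered 1; circles, numbered 2; red, the WT libraries numbered 1) with the mean of each group as a line. *Trac* ranges from 1614 to 2844 CPM and is lower at day 5, and the red squares are the lowest points of their day in each panel.

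The named variable segments were the 10 with the highest mean share of *Trav* counts, which held 37.8% to 42.5% of them in every library. *Trav3-3* led in 6 of the 8 libraries. Its shares were 5.11% and 7.14% in WT at day 0, 7.62% and 8.48% in KO at day 0, 6.48% and 9.05% in WT at day 5, and 7.32% and 8.28% in KO at day 5. In both WT libraries numbered 1 it was passed by *Trav12-2*. *Trav14-1* had a mean share of 4.57%, *Trav19* 4.11%, *Trav12-2* 3.98% and *Trav16n* 3.76%. *Trav17*, *Trav3-1*, *Trav7-5*, *Trav16d-dv11* and *Trav14d-3-dv8* followed with mean shares of 3.19%, 3.16%, 3.12%, 2.87% and 2.78%. Per kilobase of annotated exon, *Trav3-3* was also the highest, at a mean of 73.5 CPM, ahead of *Trav14-1* at 47.0 and *Trav17* at 37.3, and the next 5 segments lay between 35.2 and 37.0. With 1358 to 5760 counts a library, the 95% Wilson interval of the share of *Trav3-3* ran from 6.96% to 8.34% in the deepest library and from 5.29% to 7.92% in the shallowest, for counting error only.

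Usage was spread over many segments. Between 74 and 84 of the 128 variable segments had a count in a library, and 65 had one in all 8. The effective number of segments, the exponential of the Shannon entropy of the shares, was 44.9 and 47.8 in WT at day 0, 48.5 and 47.7 in KO at day 0, 41.3 and 45.2 in WT at day 5, and 47.0 and 47.0 in KO at day 5. Group means were 46.3 ± 2.07, 48.1 ± 0.616, 43.2 ± 2.81 and 47.0 ± 0.0315 (SD, n = 2). The lowest value of each day belonged to library 1 of WT. Scaled down to the smallest total, 1358 counts, the libraries held between 72.3 and 75.9 segments, so library 1 of WT had as many segments as the others but in less even shares.

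Genotype was compared within each day. No member was called with edgeR (FDR under 0.05) in KO against WT at day 0, where 1.8% of all tested genes were, nor at day 5, where 1.63% were. At an unadjusted edgeR p under 0.05 there were 4 members at day 0 and 5 at day 5, or 4.49% and 5.62% of the 89, against 13.8% and 14.1% of all genes. The 4 were *Traj19* (log2 fold change 1.02), *Trav1* (0.74), *Trav6-1* (1.05) and *Trav8-2* (-1.60). At day 5 they were *Trac*, *Trav3-1* (1.18), *Trav6-4* (1.86), *Trav7d-4* (1.53) and *Trav8n-2* (1.16). The lists have no member in common. DESeq2, which gave a p for 34404 genes, called 0 members at either day as well, beside 0.555% and 0.622% of all genes, with 1 and 4 members at an unadjusted p under 0.05, beside 3.61% and 3.8% of all genes.

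By sign, 69 of the 89 members had a fitted value above 0 in KO against WT at day 0 and 67 at day 5, where 49.7% and 49.9% of all genes did. The median log2 fold change of the 56 tested *Trav* segments was 0.41 at day 0 and 0.34 at day 5, and that of the 32 *Traj* segments 0.40 and 0.18, beside medians of 0.00 for all genes (-0.0017 at day 0). Both KO libraries were above both WT libraries for 34 of the 89 members at day 0 (21.7% of all genes) and for 27 at day 5 (25% of all genes), which is 38.2% and 30.3% of the members. These medians depended on single libraries. Without both WT libraries numbered 1, the *Trav* medians were 0.14 at day 0 and 0.11 at day 5 and the *Traj* medians 0.26 and -0.15, with all genes at 0.02 and 0.05. Without library 2 of WT the *Trav* medians were 0.67 at day 0 and 0.86 at day 5. The *Traj* median at day 5 was 0.40 without library 2 of WT, 0.0094 without library 1 of KO and 0.46 without library 2 of KO. The interaction called 0 members with edgeR, where 0.159% of all genes were called, and 1 member, *Traj20*, had an unadjusted p under 0.05 (12.4% of all genes), with an interaction of -1.74 (SE 0.71, edgeR FDR 0.343). DESeq2 called 0 members in the interaction (0.183% of all genes), and 0 had an unadjusted p under 0.05 (3.15% of all genes).

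Few members passed the test between days, at a lower share than all genes. In WT, 5 members were called at day 5 against day 0 and all were lower, which is 5.62% of the members tested, against 23.6% of all genes. In KO, 3 were called, all lower, or 3.37% of the members against 24% of all genes. The median *Trav* change was -0.57 in WT and -0.43 in KO and the median *Traj* change -0.52 and -0.57, while all genes had medians of -0.04 and -0.05. The WT medians depended on single libraries. Without library 1 of WT at day 5 they were -0.15 for *Trav* and -0.07 for *Traj*, without library 2 of WT at day 5 -0.99 and -0.94, and without library 2 of WT at day 0 -0.27 and -0.22, with all genes between -0.03 and -0.02. The fitted change was below 0 for 78 of the 89 members in WT (51.6% of all genes) and for 82 in KO (51.8%). Both day 5 libraries were below both day 0 libraries for 32 members in WT and 51 in KO, or 36.0% and 57.3% of them, where 38% and 39.7% of all genes did so. Scaling by library totals alone moved the median of all genes to -0.17 in WT and -0.23 in KO, and the *Trav* medians to -0.70 and -0.61. Of the 56 *Trav* segments tested, 42 averaged under 10 CPM. Markers of the cell types moved with the days as well. Of 15 markers 7 were tested, of which 6 fell in WT and 4 in KO and none rose, *Cd3e* and *Cd8b1* among those that fell in both. The macrophage marker *Csf1r* fell by 1.19 in WT (edgeR FDR 0.0210) and by 1.18 in KO (edgeR FDR 0.0156). *Itgam*, a myeloid integrin with 0.480 to 5.18 CPM, fell by 2.98 in WT (edgeR FDR 0.00191) and had a change of -0.79 in KO (edgeR FDR 0.242), on 2 to 24 counts a library. Their part in the lower values of the members was not tested.

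*Trav14-1* went from 25.3 and 26.4 CPM in WT at day 0 to 8.26 and 20.4 at day 5, a change of -0.88 (SE 0.33, edgeR FDR 0.0448). The groups do not overlap, but library 1 of WT at day 5 was far below the other, and without it the change was -0.32 (edgeR FDR 0.383). *Trav14-1* was called in 8 of 18 alternative settings. The call ended, among others, with DESeq2 (adjusted p = 0.183), with only the 4 libraries of the comparison (edgeR FDR 0.0563) and without library 1 or 2 of WT at day 0 (edgeR FDR 0.131 and 0.144) or library 1 or 2 of KO at day 5 (edgeR FDR 0.0613 and 0.0642). *Trav12-1* went from 10.3 and 11.3 CPM in KO at day 0 to 4.76 and 5.66 at day 5, a change of -1.04 (SE 0.29, edgeR FDR 0.0100). It was called in 15 of 18 alternative settings, and the call ended with DESeq2 (adjusted p = 0.158), with *Trav* totals as library sizes (edgeR FDR 0.266) and without library 1 of KO at day 5 (edgeR FDR 0.0893). In WT the same segment had 8.20 and 10.4 CPM at day 0 and 5.97 and 6.96 at day 5, with a change of -0.52 (SE 0.30, edgeR FDR 0.172), and the difference between genotypes was -0.52 (SE 0.42, edgeR FDR 0.666).

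The remaining called segments were low and were named after their values were seen. In WT these were *Trav15-1-dv6-1* (-1.52, edgeR FDR 0.0158), *Trav4-2* (-1.97, edgeR FDR 0.0350) and *Trav9-1* (-1.23, edgeR FDR 0.0482). *Trav9-1* was called in 1 of 17 alternative settings and *Trav4-2* in 7 of 16. *Trav15-1-dv6-1* was called in 14 of 18, and its call ended with DESeq2 (adjusted p = 0.114), with *Trav* totals as library sizes (edgeR FDR 0.126), without library 2 of WT at day 0 (edgeR FDR 0.178) and without library 1 of WT at day 5 (edgeR FDR 0.139). *Trav15-1-dv6-1* had 4.46 and 9.46 CPM at day 0 against 1.76 and 3.12 at day 5 in WT. In KO *Traj20* was called (-1.31, edgeR FDR 0.0425), with 4.36 and 2.93 CPM at day 0 against 1.83 and 1.13 at day 5, and it was called in 4 of 17 alternative settings. Leaving out single libraries moved the WT count to 3 without library 2 of WT at day 0, library 1 of KO at day 0 or library 1 of WT at day 5, to 11 without library 2 of WT at day 5, and to 2 without either KO library of day 5. The KO count became 0 without library 1 of KO at day 5.

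Whether usage changed, apart from the level of the locus, was read by giving each library its *Trav* total as library size. On this scale 38.5% of all tested genes were called with edgeR in WT at day 5 against day 0 (46.2% at an unadjusted p under 0.05) and 36.9% in KO (45.1%). Of the 89 members, 0 were called in either genotype, and 0 had an unadjusted p under 0.05. Unchanged genes would pass that p at a share of 0.05, so the test was strict for the members on this scale. The lack of calls does not show that usage stayed the same, and 42 of the 56 tested *Trav* segments averaged under 10 CPM. In KO against WT, 1.74% of all genes were called at day 0 (11.5% at an unadjusted p under 0.05) and 0.738% at day 5 (14%), and of the members 0 were called, with 2 at an unadjusted p under 0.05 at each day. The scale sets the locus itself near 0, so that the median of all genes lay at -0.32 and -0.42 in KO against WT (day 0 and day 5) and at 0.49 in WT and 0.38 in KO with culture.

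Joining segments were used throughout their stretch of the locus. The 10 with the highest share held 42.4% to 51.1% of *Traj* counts, led by *Traj18* with a mean share of 7.56% (6.17% to 8.73% over the libraries), *Traj27* with 6.67% (4.82% to 8.75%) and *Traj49* with 5.72% (4.70% to 6.55%). *Traj19*, *Traj17*, *Traj9*, *Traj22*, *Traj21*, *Traj30* and *Traj28* completed the 10 with the highest mean CPM, with mean shares of 5.56%, 5.17%, 3.89%, 3.82%, 3.09%, 2.99% and 2.502%. Per kilobase, *Traj18* and *Traj27* stood at means of 120.5 and 120.3 CPM and *Traj19* at 97.8. These levels per kilobase stood above those of the variable segments. Exons of 29 to 72 bases are about as short as a 50-base read, which can be counted when it overlaps them in part. Division by length therefore raises the joining segments, and the families cannot be ranked on this scale. The counts also do not separate reads of joined segments from reads of unjoined or unspliced RNA.

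**Figure D2:**
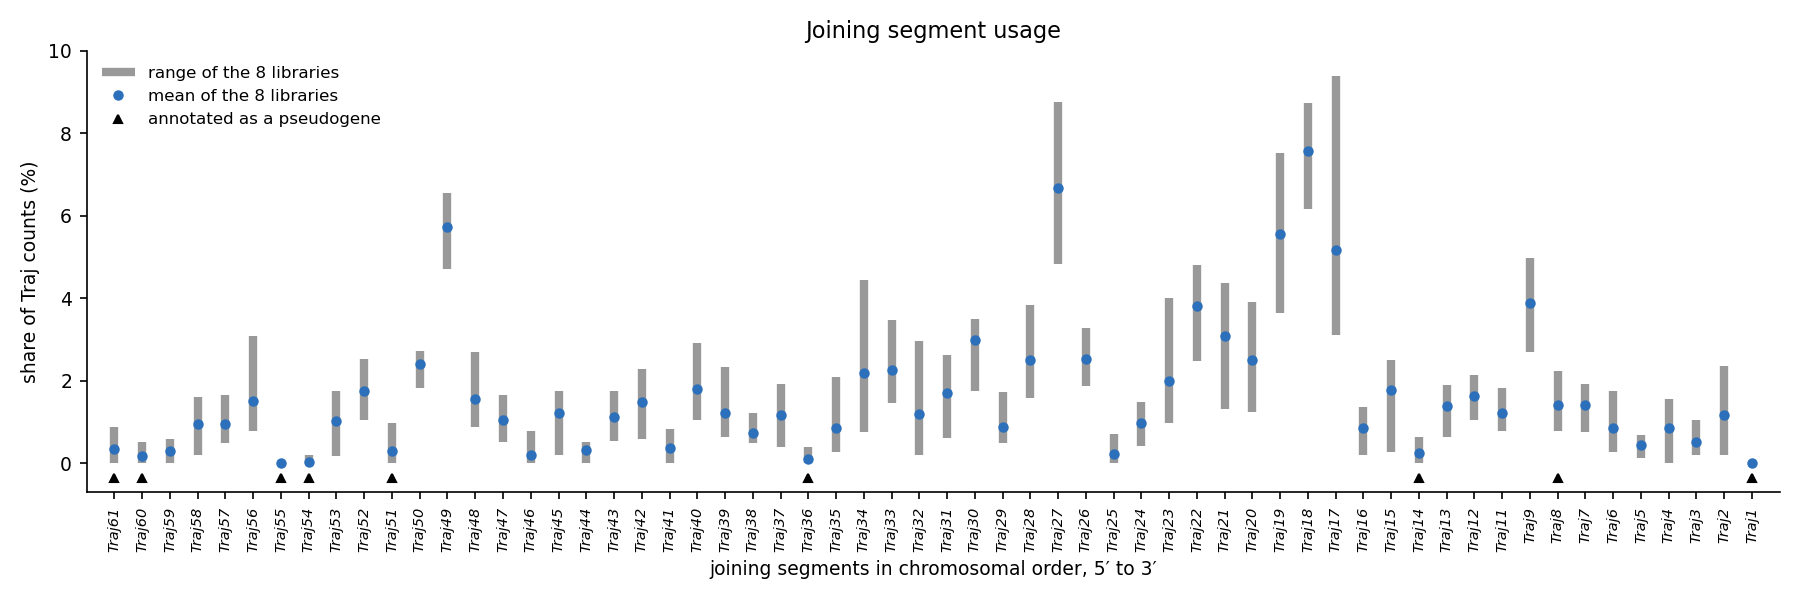
Share of *Traj* counts in percent for the 60 joining segments in chromosomal order, with the mean (blue) and the range (grey) over the 8 libraries, and triangles for annotated pseudogenes. *Traj18*, *Traj27* and *Traj49* have the highest means, at 7.56%, 6.67% and 5.72%, and most pseudogenes lie near 0.

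*Traj18*, which invariant natural killer T cells use, had 7.13 and 8.34 CPM in WT at day 0, 10.9 and 10.8 in KO at day 0, 5.45 and 7.20 in WT at day 5, and 5.86 and 7.92 in KO at day 5. *Traj33* had 2.14 and 2.48 CPM in WT and 3.33 and 3.66 in KO at day 0, and 1.23 and 3.36 in WT and 1.83 and 1.32 in KO at day 5. *Trav1*, its usual partner in mucosal-associated invariant T cells, had 6.06 and 6.08 CPM in WT and 9.74 and 10.6 in KO at day 0. At day 5 it had 5.45 and 5.52 in WT and 7.33 and 5.47 in KO. None of these was called in any comparison with edgeR as fitted here, but with library totals only as the scale *Traj18* (edgeR FDR 0.0332) and *Trav1* (edgeR FDR 0.0288) were called lower at day 5 in KO. The 20 joining segments farthest from *Trac* (numbers 42 to 61) held 19.3% to 26.4% of *Traj* counts, the middle 20 held 31.3% to 39.8% and the 20 nearest to *Trac* (numbers 1 to 21) 36.8% to 45.9%. Of the 60, 2 pseudogenes, *Traj55* and *Traj1*, had no count in any library.

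The clearest difference in the variable segments lay between libraries. It was noticed in the values and is given as a description. The WT libraries numbered 1, at day 0 and at day 5, resembled each other in *Trav* usage and differed from the other 6. The share of *Trav* counts that would have to move to another segment to turn the usage of 1 library into that of another was 22.3% to 28.9% between either of them and any of the other 6, 16.5% between them, and 8.70% to 14.8% among the other 6. A chi-square per degree of freedom of 1 is what counting error alone gives, and it grows with depth. It was 4.59 to 6.98 between either of them and the others, 2.098 between them, and 1.18 to 2.18 among the others, which include WT and KO libraries of both days. Adding up copies of a subfamily left the pattern in place, with 4.84 to 6.70, 2.51 and 1.25 to 2.55.

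**Figure D3:**
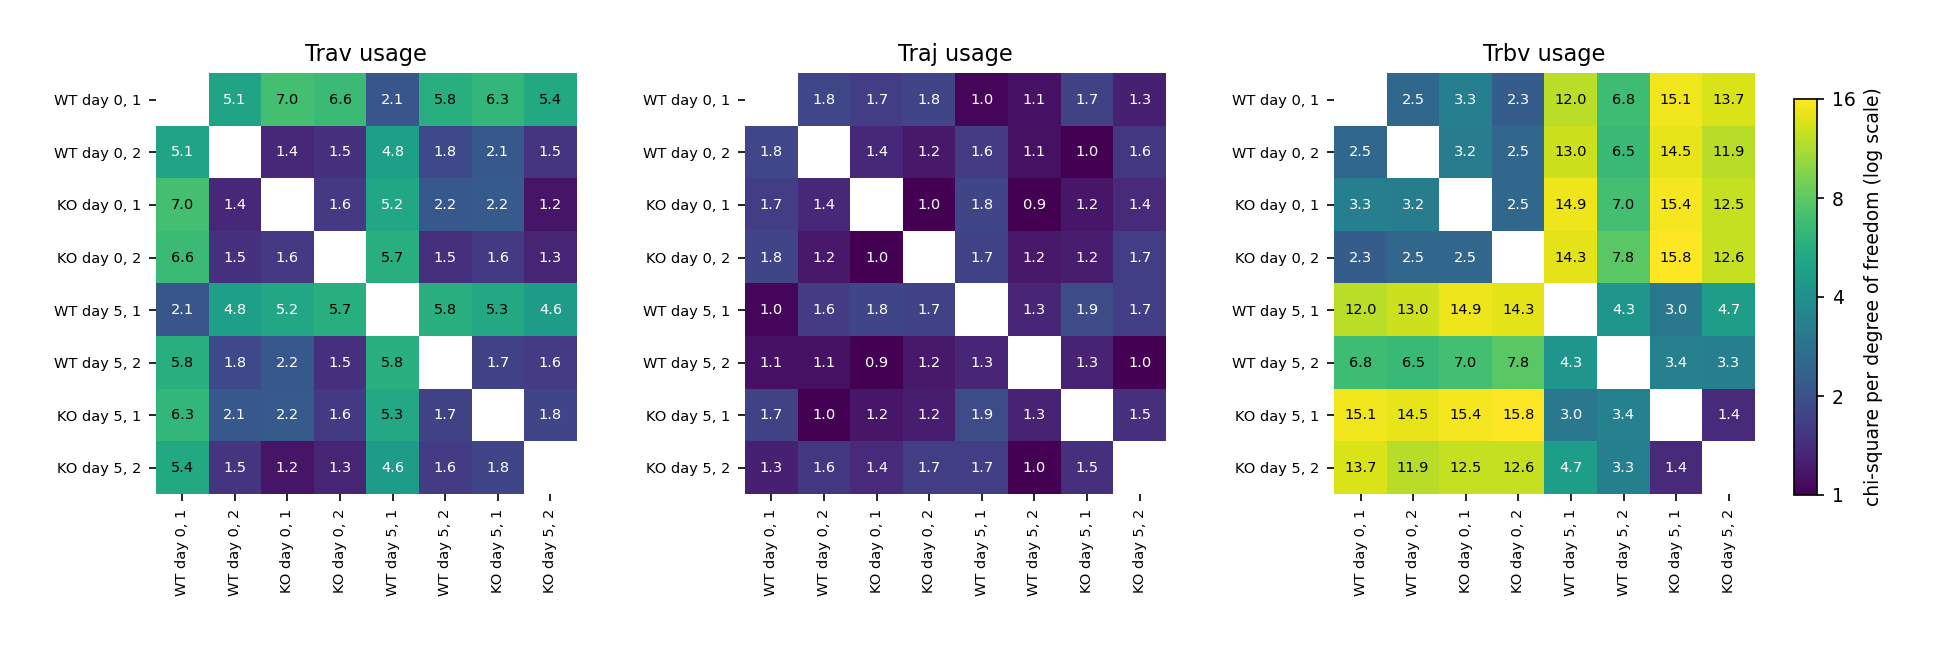
Chi-square per degree of freedom between the segment counts of each pair of libraries, for *Trav*, *Traj* and *Trbv*, on a log colour scale with the value in each cell. In *Trav* the rows of the WT libraries numbered 1 stand apart, at 4.59 to 6.98 against the other 6 libraries, whereas in *Trbv* day 0 and day 5 stand apart.

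In the other segments of the receptor the split was smaller or of another kind. In *Traj* the chi-square per degree of freedom was 1.14 to 1.91 between the WT libraries numbered 1 and the others, 1.05 between them and 0.926 to 1.68 among the others, with medians of 1.69 for the first kind of pair and 1.21 for the last, at lower counts. For the same kinds of pairs, the share of *Traj* counts that would have to move was 17.0% to 26.2%, 18.4% and 13.4% to 22.2%. Low counts raise this share, and its ranges overlap. For the beta chain, the variable segments (*Trbv*) gave 6.53 to 15.8 between days and 1.40 to 4.67 within a day, at a greater depth of 3262 to 15278 counts a library. The top of the within-day range came from pairs with a WT library numbered 1, at 2.26 to 4.67 (median 3.17), against 1.40 to 3.37 (median 2.86) for the other pairs of a day. The share of *Trbv* counts that would have to move was 9.57% to 14.3% between days, and within a day 4.43% to 9.03% for pairs with a WT library numbered 1 and 3.37% to 6.70% for the others. Between the WT libraries numbered 1, on different days, *Trbv* usage had a value of 11.98.

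By position, the 3′ stretch of the locus held a larger share of *Trav* counts in these libraries. Shares are relative, and the summed *Trav* CPM of these libraries was the lowest of each day. The 47 unlettered segments from *Trav7-2* to *Trav23* (chr14:53390635-53977678) held 71.3% and 71.6% of *Trav* counts in library 1 of WT at day 0 and day 5, and 59.4% to 62.6% in the other 6. The 39 d copies (chr14:52683964-53082520) held 8.89% and 8.39%, against 13.4% to 15.6%. The 8 unlettered segments at the 5′ end (chr14:52427928-52667864) held 8.13% and 6.92%, against 10.98% to 13.5%. For the 34 n copies the values were 11.6% and 13.1%, within the range of the others, 10.4% to 13.6%.

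**Figure D4:**
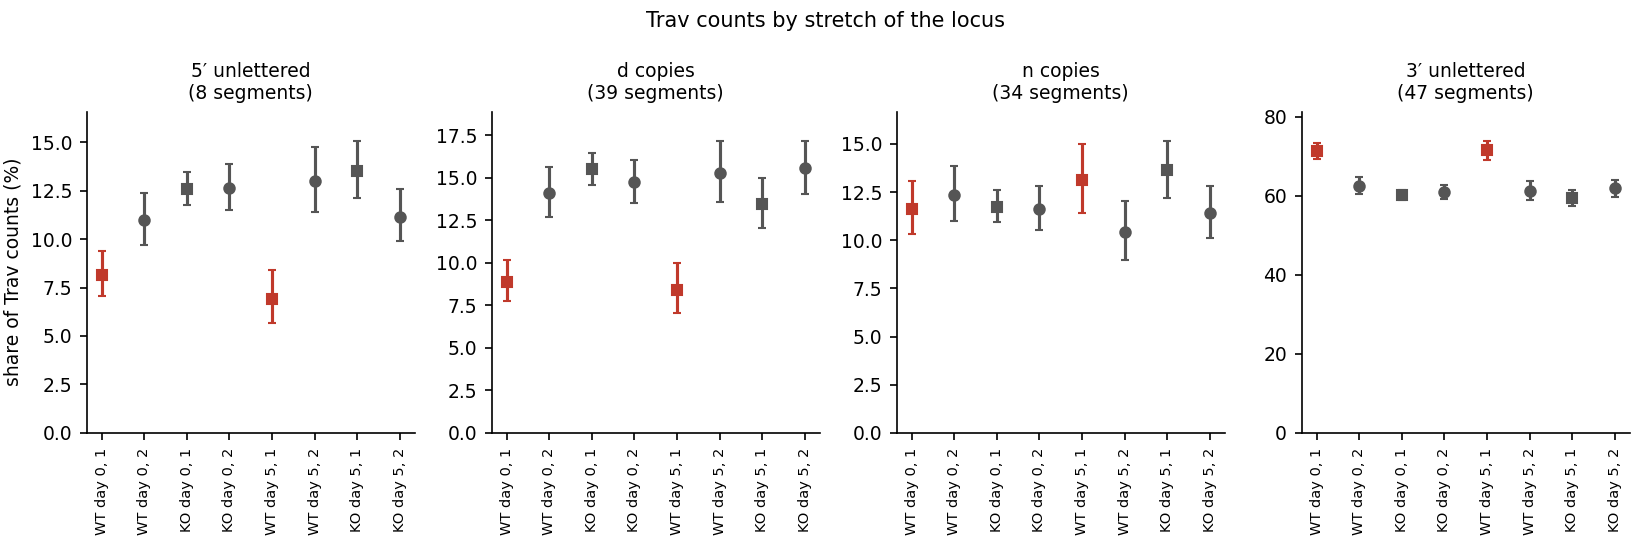
Share of *Trav* counts in percent for 4 stretches of the locus in each library, with 95% Wilson intervals for counting error; red marks the WT libraries numbered 1. They lie below the other 6 libraries in the 5′ unlettered segments and the d copies, and above them in the 3′ unlettered segments (71.3% and 71.6% against 59.4% to 62.6%).

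Segment by segment, 61 variable segments had a mean share of at least 0.2%. Both WT libraries numbered 1 lay below all of the other 6 for 15 of them and above all of the other 6 for 12. These libraries were set apart after their values were seen, and this rule on shares was not run over all genes. A count on CPM with all genes beside it is given below. The 5′ stretch and the d copies gave 3 and 7 of the 16 segments below, counting those of any level, and none above. *Trav8d-1* had 8 counts of 2115 (0.378%) and 2 of 1358 (0.147%) in these libraries, against 1.29% to 1.58% in the others. The pseudogene *Trav9n-1* had 0.142% and 0.295%, against 0.910% to 1.54%, and *Trav3-1* had 1.99% and 1.105%, against 3.21% to 4.43%. In the other direction, *Trav12-2* had 7.57% and 6.70%, against 2.03% to 3.99%, and *Trav10* had 1.80% and 1.33%, against 0.481% to 0.767%.

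**Figure D5:**
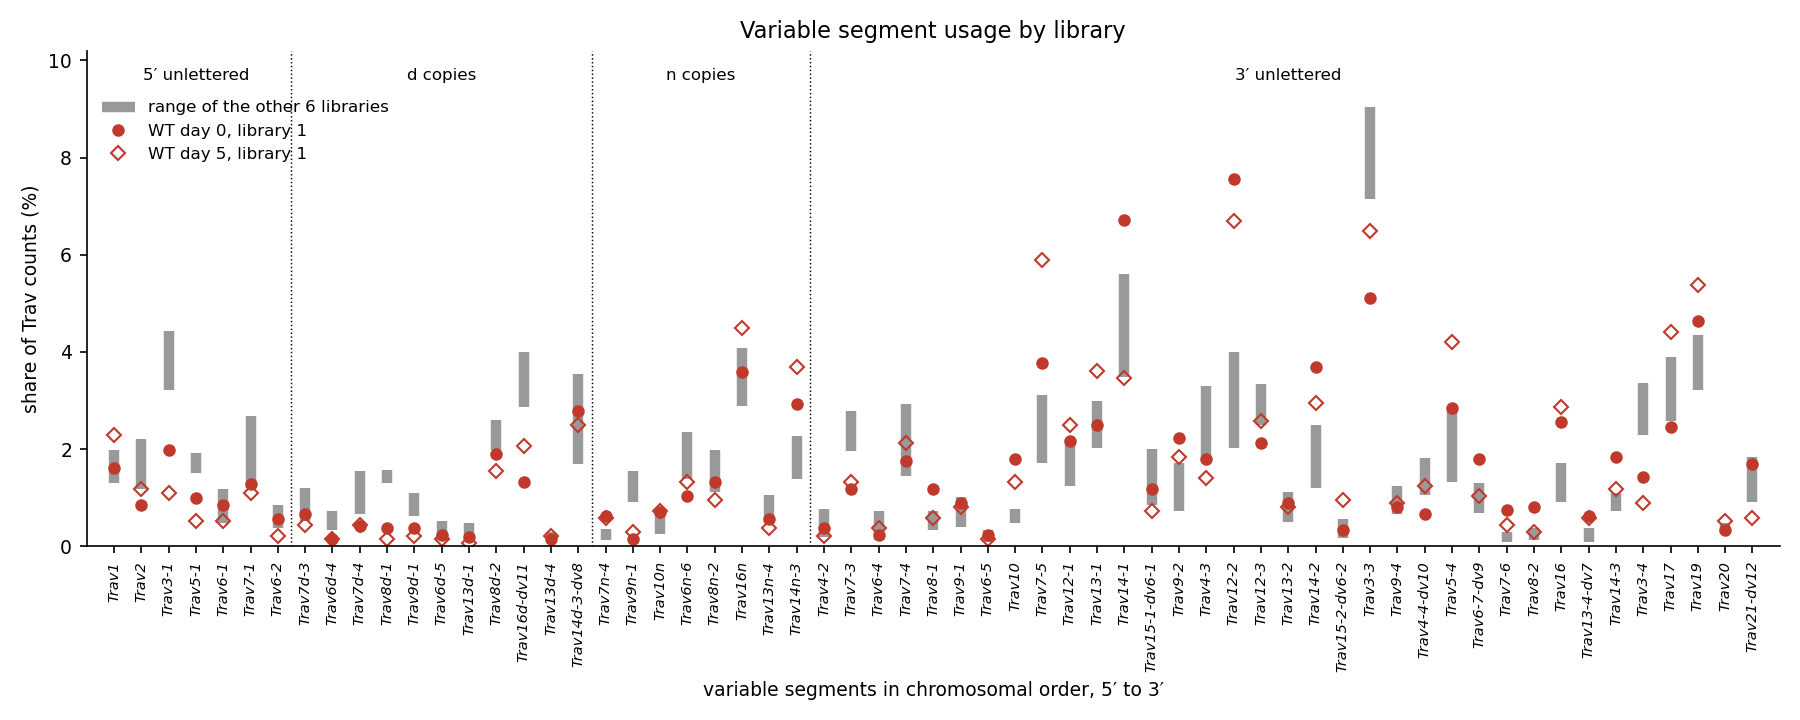
Share of *Trav* counts in percent for the variable segments with a mean share of at least 0.2%, in chromosomal order; grey bars give the range of 6 libraries and red symbols the WT libraries numbered 1. The red symbols lie below the bars at *Trav3-1*, *Trav8d-1* and *Trav3-4* and above them at *Trav12-2*, *Trav7-5* and *Trav16*.

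The copies printed above show how the difference runs within a subfamily. *Trav16* had a share of 2.55% and 2.87% in the WT libraries numbered 1, above the 0.918% to 1.72% of the other 6. *Trav16d-dv11* had 1.32% and 2.06%, below their 2.88% to 4%, and *Trav16n* had 3.59% and 4.49%, where the others ranged from 2.89% to 4.07%. The 3 copies together held 7.47% and 9.43%, against 7.80% to 8.71%.

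On the CPM scale, which includes the lower level of the locus, library 1 of WT was below the other 3 libraries of its day at both days for 29 of the 56 tested *Trav* segments and 13 of the 32 *Traj* segments, and for 6.96% of all genes. It was above them for 5 *Trav* segments and 1 *Traj* segment (7.96% of all genes). By at least 2-fold at both days it was lower for 11 *Trav* segments, for 0 *Traj* segments and for 25 of all 12597 genes (0.198%). It was higher by that much for 0 members and 0.127% of all genes. These differences were taken on log2(CPM + 1). These 11 were *Trav3-1*, *Trav5-1*, *Trav7-1*, *Trav6d-4*, *Trav7d-4*, *Trav8d-1*, *Trav9d-1*, *Trav16d-dv11*, *Trav9n-1*, *Trav7-3* and *Trav3-4*. Beside these values, *Trdc* was 53.1 CPM in library 1 of WT at day 0, below the 77.0 to 81.6 of the other day 0 libraries, and 27.2 at day 5, within the 21.3 to 45.1 of the others. *Cd3e* was 1060 and 566 CPM, against 1023 to 1079 at day 0 and 567 to 673 at day 5. At day 0 its gene counts (5334783) and share of assigned records (22.2%) lay within the range of the other libraries of the day. At day 5 its gene counts were the highest of the day, 6180044 against 4170126 to 5843985, and its share of assigned records the lowest, 23.5% against 24.0% to 24.5%. The share of records aligned to several places was the highest of the day in each, at 34.5% against 31.8% to 33.5% at day 0 and 37.4% against 35.7% to 36.3% at day 5. What these libraries share beyond genotype and number is not given by the labels, and the part of these values in the difference was not tested.

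Genes that work with the alpha chain were examined through lists. Of 8 receptor partners, 6 fell with culture in WT and 5 in KO with edgeR, and none rose, where 23.6% and 24% of all genes fell. The beta constant genes *Trbc1* and *Trbc2* fell by 0.69 and 0.69 on the log2 scale in WT and by 0.62 and 0.63 in KO, and *Cd8b1*, a chain of the CD8 co-receptor, fell by 1.64 and 1.36. *Cd3d* and *Cd3g*, which encode signalling chains of the receptor complex, had changes of 0.02 and -0.14 in WT and were not called. In KO against WT at day 5, *Cd8a* was the only one of the 8 called, at 0.60 (SE 0.11, edgeR FDR 0.0155).

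Of 8 rearrangement genes, 5 were tested. With culture 1 rose and 2 fell in WT, and 1 rose and 3 fell in KO, where 24.7% of all genes rose and 23.6% fell in WT and 26.2% rose and 24% fell in KO. *Rag1* and *Rag2*, which cut the segments, had at most 1 count in any library. *Dntt*, which adds bases at the joints, rose with culture in both genotypes, from 5.17 and 9.69 CPM to 14.2 and 28.8 in WT (1.54, edgeR FDR 0.00799) and from 4.87 and 2.38 to 17.6 and 14.5 in KO (2.06, edgeR FDR 0.00135). *Prkdc* and *Lig4*, which repair the ends, fell in both, with changes of -1.51 and -1.496 in WT and -1.81 and -2.39 in KO. *Xrcc4*, of the same repair pathway, fell with culture in KO (-0.79, edgeR FDR 0.000757), had a change of -0.29 in WT (edgeR FDR 0.117) and was lower in KO than in WT at day 5 (-0.71, edgeR FDR 0.0349). Among 9 genes for factors that bind the alpha enhancer and its neighbour *Dad1*, 4 fell in WT and 5 in KO and none rose, beside the same 23.6% and 24% of all genes. *Tcf7* fell by 2.44 and 2.14 and *Lef1* by 2.30 and 2.56. Of 11 delta segments, 4 were tested, and *Trdc* and *Trdv2-2* fell with culture in both genotypes. None of the factor or delta genes was called between genotypes.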

How the data were processed

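RNA from splenic CD8+ T cells was measured in 8 libraries. Per the submitters' processing notes, reads (50 bases, total RNA, NEBNext Ultra kit) were handled with HISAT2 2.1.0 and HTSeq 0.11.1 and the mm10/GRCm38 genome. The annotation and strand setting are not given in the sources used here, and antisense reads cannot be told apart. The authors deposited raw counts per gene symbol and library, and neither scaling nor pooling was applied. Reads that aligned to several places were left out, so copies were counted from unique reads only.

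The members and gene lists were chosen with earlier results of these data known. Groups came from the sample labels. Counts were tested with edgeR 4.0.16 (R 4.3.3, quasi-likelihood, trimmed mean of M-values, default filter with a minimum count of 10, all 8 libraries, 1 mean per group) over 12597 genes, with two-sided p-values and Benjamini-Hochberg adjustment. Members with FDR under 0.05 were called. The fit was tested on simulated data. DESeq2 1.42.0, other scalings and filters, a replicate block and left-out libraries were the alternatives. CPM is counts per 1000000 of the scaled library size. Named members were *Trac*, the 10 *Trav* with the highest mean share and the 10 *Traj* with the highest mean CPM, members called between genotypes, called members with at least 10 CPM among the largest day changes, and segments of invariant T cells. Others are named with the rule or list that gave them. Uniqueness was counted in 50-base windows of GENCODE M21 transcripts, and share intervals are 95% Wilson (scipy 1.17.1). Chi-squares used segments with at least 10 counts in a pair. Intervals cover counting error only, since reads carried no molecular identifiers, and groups of 2 give an SD on 1 degree of freedom.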

Additional observations from a re-analysis of the deposited data

Results flagged for a closer look

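*Satb1*, the targeted gene, differed between the days in its genotype effect. The interaction was -1.34 on the log2 scale (SE 0.21, edgeR FDR 0.0269), with KO against WT at 0.51 (SE 0.15, edgeR FDR 0.125) at day 0 and -0.84 (SE 0.15, edgeR FDR 0.0162) at day 5. Both KO libraries were above both WT libraries at day 0 and below them at day 5. No *Trav*, *Traj* or *Trac* value met a rule for a closer look, and groups of 2 libraries are too small for the check of a library's gap to the others of its group.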

How the results depend on the processing

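The zero calls between genotypes held under every alternative except that without a filter on low counts 1 member, *Trav3-1*, was called in KO against WT at day 5 (edgeR FDR 0.0247). The counts for culture depended on the processing, and all calls were of lower values. In WT, where 5 members were called, the count was 3 with DESeq2 size factors, 11 with library totals only, 0 with *Trav* totals as library sizes, 3 with at least 5 CPM in 2 libraries, 1 with DESeq2, 2 with only the 4 libraries of the comparison, and 3 when both WT libraries numbered 1 were left out, an alternative added after seeing the data that leaves 1 library in each WT group, assumed to vary like the KO groups. Leaving out single libraries gave 2 to 11. In KO, where 3 were called, it was 9 with library totals only, 0 with *Trav* totals, 5 without a filter, 1 with DESeq2, 5 with only the 4 libraries, 5 without both WT libraries numbered 1, and 0 to 3 without single libraries. With the replicate block it was 5 in WT and 5 in KO, with other members: *Trav9-1* was lost (edgeR FDR 0.0622) and *Trav12-2* gained in WT, and *Traj20* was lost (edgeR FDR 0.0550) and *Traj27*, *Trav12-2* and *Trav15-1-dv6-1* gained in KO. The labels give only shared numbers: deviations of same-numbered libraries correlated over all genes at 0.12 between the WT groups and 0.23 between the KO groups, and between -0.07 and 0.00 for the other pairs of groups. Over the 56 tested *Trav* segments the values were 0.57 between the WT groups and -0.21 between the KO groups. The block gives same-numbered libraries of both genotypes a common shift, so it does not model a pairing within a genotype. It changed no genotype call. With *Trav* totals as library sizes, which set *Trac* relative to the variable segments, the *Trac* differences turned to -0.16 and -0.11 between genotypes. Between days they turned to 0.00050 and 0.054. The effective number of *Trav* segments was 40.02, 41.95, 37.04 and 41.1 (WT and KO at day 0, WT and KO at day 5) without the -dv segments, and 33.0, 34.2, 31.8 and 33.5 over subfamilies, which hold fewer units. With library totals only, KO at day 5 had 362 CPM of *Trav*, 86.9 of *Traj* and 1960.1 of *Trac*. Apart from these scales the cause of the changes was not tested. Segments under 10 CPM, most of those tested, rest on few counts per library.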

Other observations

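Some genes in or near the alpha locus, other than its members, stood outside the other libraries in library 1 of WT at both days. The named ones were chosen after their values were seen. There were 74 other genes tested inside the locus, such as *Trdc*, or within 2 Mb of it. Of these, 11 (14.9%) were below the other 3 libraries of the day at both days, where 6.96% of all genes were. Above them were 7 (9.46%), near the 7.96% of all genes. *Supt16* (chr14:52160414-52197416), a subunit of a histone chaperone, had 50.8 CPM in library 1 of WT at day 0 and 63.6 at day 5. The other libraries had 194 to 215 CPM at day 0 and 293 to 320 at day 5. *Rpgrip1* (chr14:52110704-52163546), beside *Supt16*, had 44.7 CPM in library 1 of WT at day 0, where the others had 75.0 to 84.7. At day 5 it had 33.0 CPM, and the others had 84.8 to 94.9. *Pck2* (chr14:55540266-55551242), a mitochondrial enzyme of gluconeogenesis, had 3.56 CPM at day 0, where the others had 6.98 to 11.3. At day 5 it had 22.3 CPM, close to the 24.7 of the other WT library, and the KO libraries had 69.5 and 68.5. The cause of these differences was not tested.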
